A study of Arabidopsis thaliana with 4 samples.

Results

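The 6 genes described here are psbA, psbB, psbC, psbD, psbE and psbF, which the plastid genome of Arabidopsis thaliana carries and which encode the core of photosystem II. They were taken as the plastid genes of those names (ArthCp locus) among probe sets paired with exactly 1 gene, and each had 1 probe set. They are 6 of 69 plastid genes and of 22746 plant probe sets measured. Whole seedlings were submerged for 16 h in liquid one-sixth Murashige and Skoog medium with 1% sucrose, and the aluminium arrays carried RNA of seedlings given 50 µM aluminium. The control arrays carried RNA of mock-treated seedlings. There were 2 Affymetrix ATH1 arrays per treatment, each from 100 pooled seedlings with roots of 2 to 3 cm, and this number of arrays limits the precision. The treatment text on the control labels repeats that of the aluminium arrays, so the groups rest on the sample titles. The ecotype was not given in the sources used here, and roots and shoots were not separated.

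Photosystem II is the complex of the thylakoid membrane that uses light to split water and to pass electrons to plastoquinone. Its reaction centre is a pair of related proteins, D1 from psbA and D2 from psbD, flanked by the chlorophyll-binding inner antenna proteins CP47 from psbB and CP43 from psbC. Cytochrome b559, a haem protein at the edge of the reaction centre, is built from an alpha subunit (psbE) and a beta subunit (psbF). D1 is damaged by light and is replaced faster than the other subunits. Most plastid genes are transcribed together with their neighbours, by a polymerase of bacterial type, and their RNA carries no long stable poly(A) tail. The RNA here was copied from poly dT primers, and what that choice did to plastid signals was not tested.

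The arrays differed among themselves before any gene was compared. The 18 probe sets for hybridization controls, sequences added to every array, had a geometric mean of 131442 and 11226 on aluminium replicates 1 and 2, and of 51057 and 6339 on control replicates 1 and 2. The 25S ribosomal RNA probe set read 3511 and 533 on the aluminium arrays and 1362 and 416 on the controls. Plastid genes together made up 3.28% and 3.29% of the summed plant signal on the aluminium arrays, against 8.09% and 3.67% on the controls. Control replicate 1 thus stood apart in its plastid signal, and values for the core genes, their neighbours and the gene lists are also given without it. All 6 genes lay above the 95th percentile of 27 bacterial probe sets on every array (422 to 586).

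With aluminium, 5 of the 6 core genes (psbB, psbC, psbD, psbE and psbF) had both aluminium arrays below both control arrays, and psbA overlapped between the groups. Such a separation, downward, held for 16.2% of all plant probe sets, and for 15% of the 4100 that lay above the bacterial level on all 4 arrays. The median difference of the 6 genes was −1.23 on the scale log2(intensity + 16), beside 0.01 for all plant probe sets and −1.69 for the 63 other plastid genes. None of the 6 passed limma with Benjamini-Hochberg adjustment over all probe sets, with adjusted p from 0.966 to 0.999. That test called 0% of the 22746 probe sets, and 1084 (4.77%) had an unadjusted p under 0.05, none of them a core gene. A variant in which the spread follows the mean also called 0, with 937 at an unadjusted p under 0.05. Among these 937 were psbF (unadjusted p = 0.0171) and psbD (unadjusted p = 0.0383). With the replicate number as a block psbF had an unadjusted p = 0.0288 and a 95% interval from −3.97 to −0.31, and its adjusted p was 0.899 with limma. That model called 0 probe sets, with 1122 at an unadjusted p under 0.05. Same-numbered arrays deviated too little alike (r = 0.087) to be treated as paired. Because whole seedlings were pooled, fewer green cells and less plastid RNA per cell cannot be told apart.

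**Figure D1:**
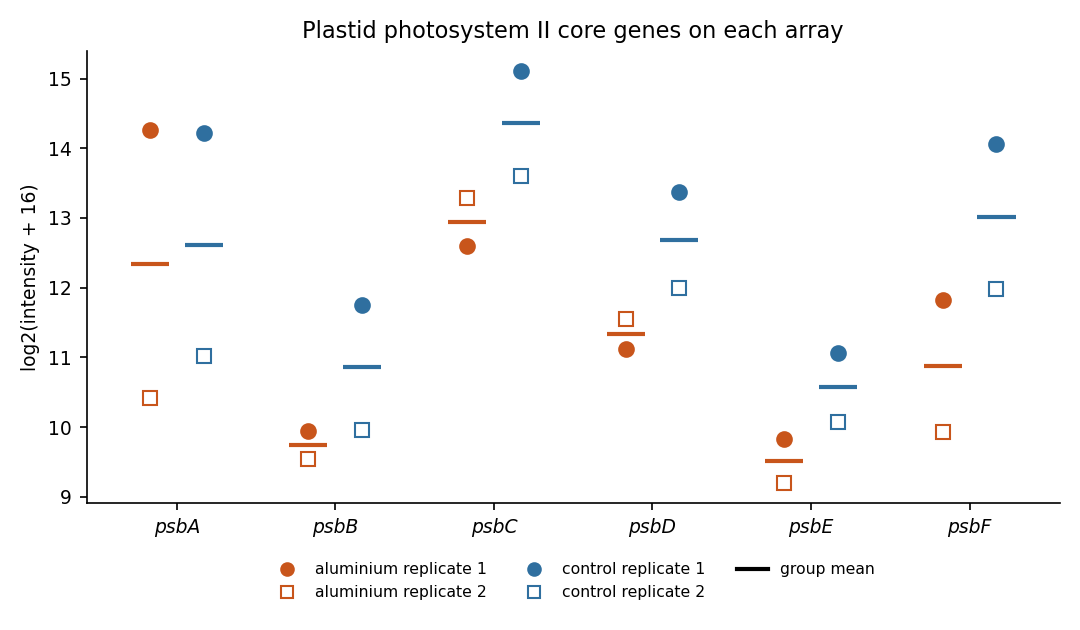
Level of each photosystem II core gene as log2(intensity + 16) on the 2 aluminium arrays (left of each pair of columns) and the 2 control arrays (right); circles are replicate 1, open squares replicate 2 and bars the group means. For psbB to psbF both aluminium points lie under both control points, while psbA splits by replicate number.

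In the reaction centre, psbD (D2) read 2209.6 and 2979 on the aluminium arrays, against 10539 and 4079.9 on the control arrays. Both aluminium arrays lay below both controls, and control replicate 1 was the high one of the 4. On the log2 scale psbD averaged 11.33 ± 0.30 with aluminium and 12.68 ± 0.97 for the controls (SD, n = 2 each), so it was 2.55-fold lower. The difference for psbD was −1.35, with a standard error of 0.78 and a 95% interval from −3.27 to 0.58 (adjusted p = 0.966, limma). Its partner psbA (D1) read 19712 and 1347 on the aluminium arrays and 18993 and 2062 on the control arrays. Those values separate by replicate number and not by treatment: both replicate 1 arrays were high and both replicate 2 arrays low. The log2 levels of psbA were 12.34 ± 2.73 with aluminium and 12.62 ± 2.26 for the controls (SD, n = 2 each). Its difference of −0.28 had an interval from −4.23 to 3.67, the widest of the 6 genes (adjusted p = 0.999, limma).

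In the inner antenna, psbC (CP43) read 6181 and 10005 on the aluminium arrays, against 35178 and 12464 on the control arrays. The aluminium arrays lay below the controls, with replicate 2 of the aluminium arrays close to replicate 2 of the controls. Levels of psbC averaged 12.94 ± 0.49 with aluminium and 14.36 ± 1.06 for the controls (SD, n = 2 each, log2 scale), a 2.66-fold lower mean. The difference was −1.41 with an interval from −3.42 to 0.60 (adjusted p = 0.966, limma). The other inner antenna gene, psbB (CP47), read 968 and 728 on the aluminium arrays, against 3446 and 980.1 on the control arrays. Its groups were separated by a narrow margin between aluminium replicate 1 and control replicate 2, and they overlapped once each array was centred on its plant median or quantile-normalized. The mean of psbB was 9.74 ± 0.28 with aluminium and 10.86 ± 1.27 for the controls (SD, n = 2 each, log2 scale). The difference was −1.12, or 2.17-fold lower, with an interval from −3.22 to 0.98 (adjusted p = 0.966, limma).

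Of the cytochrome b559 genes, psbF (beta subunit) read 3623 and 960.4 on the aluminium arrays, against 17072 and 4022 on the control arrays. The groups did not overlap, and within each group replicate 1 was the higher array. The psbF mean was 10.88 ± 1.34 with aluminium and 13.02 ± 1.47 for the controls (SD, n = 2 each, log2 scale), 4.41-fold lower with aluminium. The difference of −2.14 was the largest of the 6 genes, with an interval from −4.74 to 0.46 (unadjusted p = 0.0900, adjusted p = 0.966, limma). The gene beside it, psbE (alpha subunit), read 892 and 574 on the aluminium arrays, against 2121 and 1063 on the control arrays. Its groups were also apart, with the smallest standard error of the 6 genes (0.74). The level was 9.52 ± 0.44 with aluminium and 10.57 ± 0.70 for the controls (SD, n = 2 each, log2 scale), 2.08-fold lower. The difference for psbE was −1.05 with an interval from −2.88 to 0.78 (adjusted p = 0.966, limma).

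**Figure D2:**
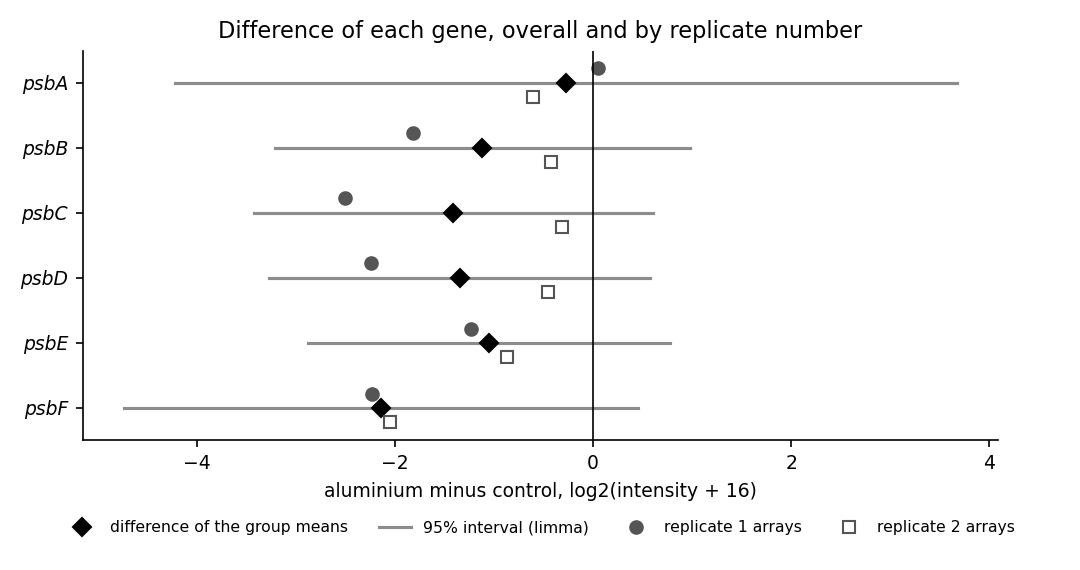
Difference between aluminium and control for each core gene on the log2(intensity + 16) scale: diamonds are differences of the group means with their 95% intervals from limma, circles the replicate 1 arrays and open squares the replicate 2 arrays. Every interval covers 0, and for psbB, psbC and psbD the replicate 2 arrays differ by less than 0.5.

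Within the replicate numbers, the differences lay close together for some genes and far apart for others. For psbF it was −2.23 between the replicate 1 arrays and −2.05 between the replicate 2 arrays, and for psbE −1.24 and −0.87. Same-numbered arrays are not treated as paired here, so the nearness of these values for psbF and psbE rests on how the arrays were matched. On the log2 scale psbF read 11.83 on aluminium replicate 1 and 11.98 on control replicate 2. For psbC it was −2.51 between the replicate 1 arrays and −0.32 between the replicate 2 arrays, for psbD −2.25 and −0.45, and for psbB −1.82 and −0.42. Without control replicate 1, the differences became −0.66 for psbC, −0.67 for psbD, −0.22 for psbB, −0.56 for psbE and −1.10 for psbF. Each of these is closer to 0 than on all 4 arrays. Both aluminium arrays read below control replicate 2 in the same 5 genes, a position held by 30.9% of all plant probe sets in that comparison. For these 5 genes that position was fixed by their separation on all 4 arrays, so it is no further result. Without control replicate 2, they ranged from −1.55 for psbE to −3.18 for psbF. Without aluminium replicate 1 all 6 genes were lower on the remaining aluminium array than on both controls, against 33.2% of all plant probe sets. For psbB to psbF this too was fixed by the separation on all 4 arrays, and only psbA could have gone either way. Without aluminium replicate 1 psbA differed by −2.20.

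For psbA the direction itself depended on the arrays used. Leaving out control replicate 1 turned its difference to 1.32, and leaving out aluminium replicate 2 turned it to 1.65. Replicate 1 exceeded replicate 2 in psbA by 14.6 times among the aluminium arrays and by 9.21 times among the controls. The hybridization controls and the 25S ribosomal RNA were likewise higher on both replicate 1 arrays than on both replicate 2 arrays, and their part in the psbA values was not tested. For the other 5 genes that ratio was 0.618 to 3.77 among the aluminium arrays and 1.99 to 4.24 among the controls. Relative to the mean of the other 5 genes on the same array, which cancels the scaling of the array, the log2 value of psbA was 3.21 and −0.29 with aluminium, against 1.14 and −0.50 in controls. The groups overlapped, with a difference of 1.14 (exact two-sided permutation test, p = 0.667, where 2 arrays against 2 cannot give less than 0.333).

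**Figure D3:**
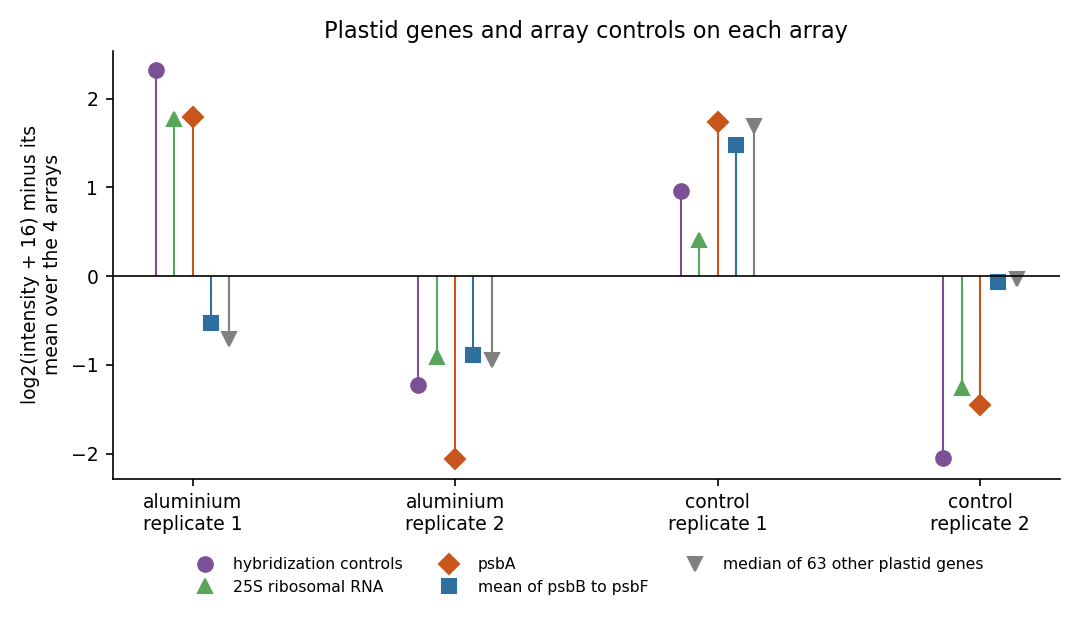
Levels on each array, as log2(intensity + 16) minus the mean over the 4 arrays, of the hybridization controls, 25S ribosomal RNA, psbA, the mean of psbB to psbF and the median of 63 other plastid genes. The controls, the ribosomal RNA and psbA are above their means on both replicate 1 arrays, while psbB to psbF and the other plastid genes are clearly above theirs on control replicate 1 alone.

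All core genes but psbA sit in clusters whose members are transcribed together, and these neighbours were read by probe sets of their own. The genes psbD and psbC overlap in the genome and share transcripts. Subtracting the log2 value of psbD from that of psbC on the same array gave 1.48 and 1.74 with aluminium, against 1.74 and 1.61 in controls. Only the change between groups has a meaning here, since probe sets differ in brightness, and it was −0.06. Their neighbour psbZ, a small subunit of photosystem II, read 7729 and 24203 on the aluminium arrays, against 86838 and 35816 on the control arrays, a difference of −2.03 with non-overlapping groups (−1.39 without control replicate 1). The likeness of psbD and psbC was not found for psbF and psbE, which also lie side by side. Subtracting psbE from psbF on the same array gave 2.00 and 0.73 with aluminium and 3.00 and 1.90 in controls, a change of −1.09 with overlapping groups. In the same cluster, psbL and psbJ, both small subunits, differed by −0.76 (overlapping) and −2.17 (not overlapping). Without control replicate 1 the mean of psbL was higher with aluminium, by 0.90, and psbJ differed by −1.21.

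The cluster led by psbB also holds psbT and psbH, small subunits of photosystem II, and petB and petD, which encode subunits of the cytochrome b6f complex. The petB difference was −1.61 (not overlapping) and the petD difference −1.34 (overlapping), beside −1.12 for psbB. With control replicate 1 left out they were −0.88 for petB, −0.53 for petD and −0.22 for psbB. Neither psbT nor psbH was above the bacterial level on an aluminium array, so no size is given for their differences. For psbH the readings were 129 and 339 on the aluminium arrays, against 2019 and 1429 on the control arrays, and the groups did not overlap. For psbT they were 72.2 and 13.5 on the aluminium arrays and 569 and 40.1 on the control arrays, of which control replicate 1 alone exceeded the bacterial level. The small gene psbN, which lies among them on the opposite strand, read 146 and 730.4 with aluminium and 5256 and 363 on the control arrays, with overlapping groups. In limma the adjusted p was 0.966 for psbT, psbH, psbN, petB and petD alike. The gene after psbA in the plastid order, matK, an intron maturase, read 985 and 239 on the aluminium arrays, against 1819 and 376 on the control arrays. Like psbA it was high on both replicate 1 arrays and low on both replicate 2 arrays, where it lay under the bacterial level. Such a split was not limited to this place in the genome. The plastid gene psaJ, which lies elsewhere, read 48219 and 5780 on the aluminium arrays and 66098 and 12075 on the control arrays.

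Across the plastid genome, 34 of the 63 other genes lay above the bacterial level on all 4 arrays, with differences from −2.76 to −0.14, and all 6 core genes lay within that range. Of the 63 other plastid genes, 61 had a lower mean with aluminium, as had 49.6% of all plant probe sets. Both aluminium arrays lay below both controls in 44 of the 63, beside 16.2% of all plant probe sets. Of the 63, 0 passed limma (adjusted p of at least 0.966). An unadjusted p under 0.05 was found for 17 of the 63, beside 4.77% of all plant probe sets. All of these values come from the same 4 arrays and many of the genes share transcripts, so they are not independent of each other. Without control replicate 1, 54 of the other plastid genes were lower in their means, beside 50.2% of all plant probe sets. The median of the 63 was −0.94 there and that of the core genes −0.61. By difference, psbA ranked 65 of 69 plastid genes from the lowest, psbE 53, psbB 51, psbD 47, psbC 43 and psbF 19. Thus 5 of the 6 core genes differed by less than the median plastid gene, and psbF by more.

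**Figure D4:**
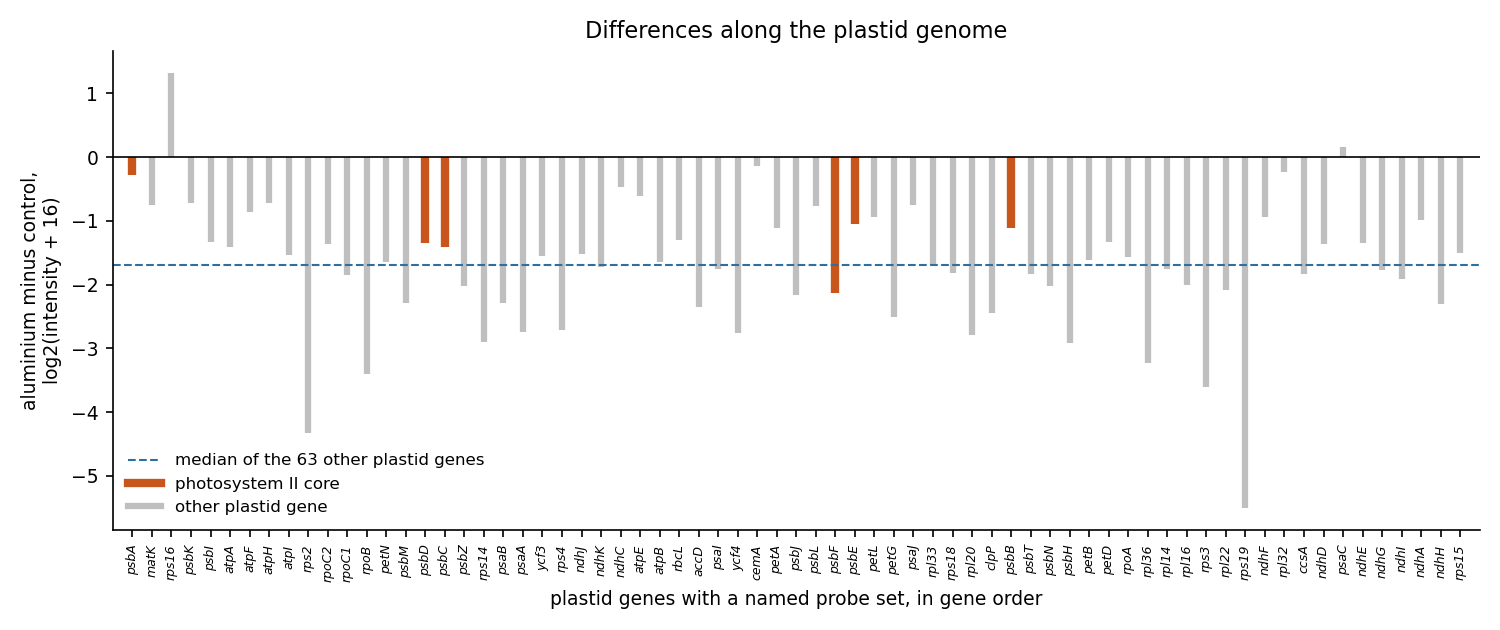
Difference between aluminium and control on the log2(intensity + 16) scale for 69 plastid genes, placed in their order along the plastid genome, with the 6 core genes coloured and the median of the other 63 dashed. Bars point down for nearly every gene, and psbF is the core gene that reaches below the dashed line.

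To set the core genes against the rest of the plastid genome directly, each array was centred on the median of the 63 other plastid genes. That scaling moves the median of all plant probe sets to 1.66. Relative to the other plastid genes, psbB stood at −0.02 and −0.20 with aluminium, against −0.61 and −0.68 in controls. The value for psbE was −0.14 and −0.53 with aluminium, against −1.30 and −0.57 in controls. In these 2 of the 6 core genes the groups did not overlap and the relative level was higher with aluminium, by 0.54 for psbB and 0.60 for psbE. On this scale the same separation, upward, held for 58.5% of all plant probe sets and for 14 of the 63 other plastid genes. The other 4 core genes overlapped: the change was 1.38 for psbA, 0.30 for psbD, 0.24 for psbC and −0.49 for psbF. No core gene passed limma on this scale, with adjusted p from 0.499 for psbA to 0.905 for psbC. The fit gave each gene the same standard error of 1.36, so that the interval for psbA ran from −1.30 to 4.05 and that for psbF from −3.16 to 2.19.

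The other plastid genes of the photosynthetic apparatus were described as lists. For the counts without overlap given below, the share over all plant probe sets, downward, was 16.2%. The list of small psb genes held 10 names, of which 9 were measured. All 9 had lower means with aluminium, 5 of them without overlap, and the median was −2.02. That median was the value of psbN, whose groups overlapped and which exceeded the bacterial level on 2 arrays. The median of the 9 was −0.27 without control replicate 1, where psbK and psbL had higher means with aluminium (0.13 and 0.90). Of the 9, 4 lay above the bacterial level on all 4 arrays. Beside psbH, psbJ and psbZ, the non-overlapping ones were psbI (−1.33) and psbM (−2.29). The psbM reading on aluminium replicate 1, 181, lay under the bacterial level. All 8 listed genes of photosystem I, its assembly and Rubisco were measured, with a median of −1.66. Of the 8, psaC, an iron-sulphur subunit, was the 1 with a higher mean (0.16). It lay under the bacterial level on both replicate 2 arrays, and 5 of the 8 lay above that level on all 4 arrays. The median was −1.20 without control replicate 1, where psaJ, a small subunit, was higher too (0.47). The plastid genes of the cytochrome b6f complex had a median of −1.48 (6 of 6 lower, 4 without overlap). For the ATP synthase it was −1.14 (6 of 6 lower, 3 without overlap) and for the NAD(P)H dehydrogenase −1.44 (10 of 10 lower, 7 without overlap). In that order, 4 of 6, 5 of 6 and 7 of 10 genes lay above the bacterial level on all 4 arrays. The 4 genes of the plastid-encoded polymerase, which transcribes psbA and the other core genes, had a median of −1.70, and all 4 were separated, though 1 of them was above the bacterial level on every array. Without control replicate 1 the medians were −0.53 for the cytochrome b6f complex, −0.43 for the ATP synthase, −0.61 for the NAD(P)H dehydrogenase and −1.14 for the polymerase, beside −0.61 for the core genes and −0.01 for all plant probe sets.

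Nuclear genes for the same complex were covered thinly by the probe table. Of 14 nuclear photosystem II subunits 3 were measured: PSBW read 1707 and 3402 on the aluminium arrays and 2794 and 6546 on the control arrays, and PSBY and PSB27, an assembly factor, differed by −0.25 and −0.59. On all 4 arrays the 3 measured genes were thus all lower in their means, by less than any core gene but psbA. PSBY alone had groups without overlap, a downward separation found in 16.2% of all plant probe sets. Without control replicate 1 that order did not hold. There PSBW differed by −1.44, PSB27 by −0.86 and PSBY by −0.06 (median −0.86), beside −0.66 for psbC and −1.10 for psbF. Of 15 antenna genes 3 were measured, all of the LHCB4 type, which links the outer antenna to the core, with a median of −1.54 (−1.34 without control replicate 1). Of 20 factors for translation, assembly and repair of photosystem II, 3 were measured. PAM68, an assembly factor, differed by −2.03, LPA1 by −0.99 and LPA2, which helps to assemble CP43, by 0.71, each with overlapping groups. These sizes rest partly on readings under the bacterial level. LPA1 was not above it on either aluminium array, and LPA2 exceeded it on 1 aluminium and 1 control array. PAM68 read 47.9 on aluminium replicate 1, under that level, and 1211 on aluminium replicate 2. The LPA2 difference turned to −0.41 without control replicate 1. None of 18 nuclear factors for plastid transcription, among them the sigma factors, could be matched to a probe set. None of the 9 measured genes of these lists passed limma (adjusted p of at least 0.966).

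**Figure D5:**
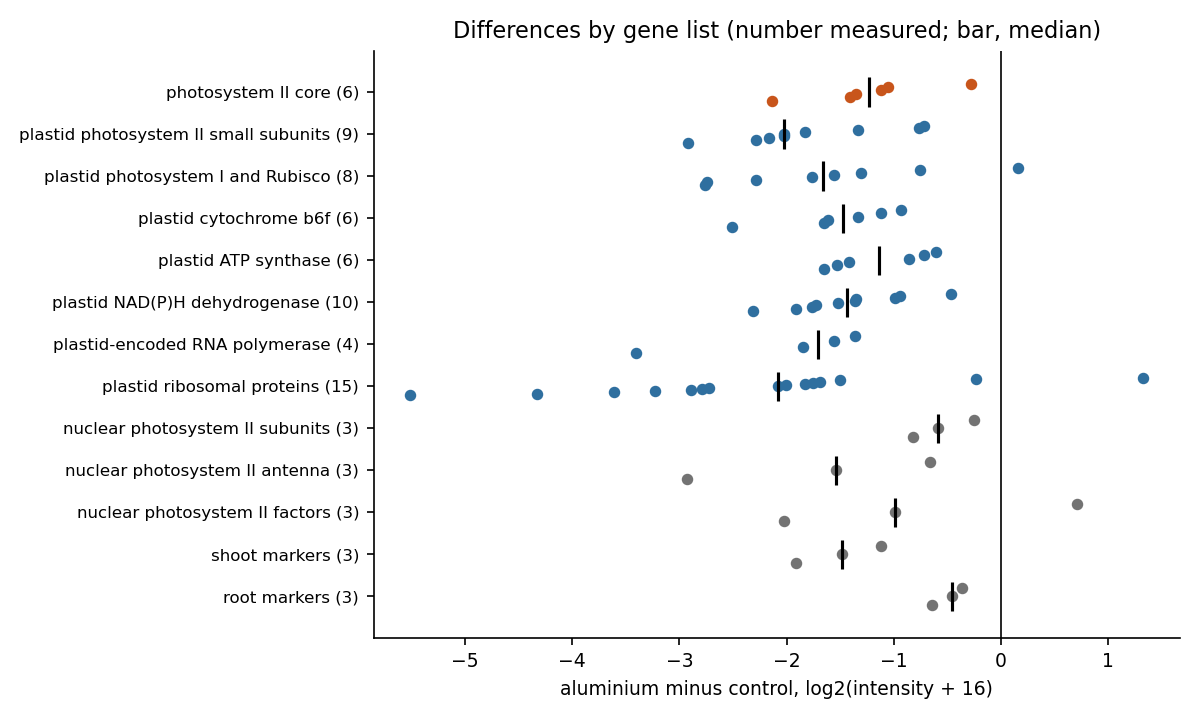
Difference between aluminium and control on the log2(intensity + 16) scale for each measured gene, by list, with the number measured in brackets and the median as a bar. The core genes spread from −2.14 to −0.28, inside the range that the other plastid lists span together.

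Markers of shoot and root tissue were read on the same arrays. Of 11 shoot markers 3 were measured. Their summed intensity was 6780 and 10691 with aluminium, against 29694 and 21742 in controls, so that the groups were apart. Control replicate 1 had the higher control sum, so leaving it out could not have made the groups overlap. Each of RCA, SBPASE and PRK, enzymes of carbon fixation or its activation, had both aluminium arrays below both controls. Such a separation, downward, held for 16.2% of all plant probe sets. Of 14 root markers 3 were measured, with a summed intensity of 629 and 2242 with aluminium and 1597 and 1745 in controls, which overlapped. No marker was at 0, but the root markers were dim. All 3 shoot markers lay above the bacterial level on every array, while none of the 3 root markers did. The root marker EXPA7 exceeded that level on no array. The 3′ probe set divided by the 5′ one, a ratio that grows as RNA is shortened, was 6.01 and 3.07 for actin on the aluminium arrays, against 2.78 and 1.94 on the controls, without overlap. It was 3.52 and 1.70 for GAPDH on the aluminium arrays, against 1.71 and 1.44 on the controls. For ubiquitin it was 4.29 and 2.21 on the aluminium arrays, against 3.29 and 2.80 on the controls. The GAPDH and ubiquitin ratios overlapped between the groups, and aluminium replicate 1 had the highest ratio for all 3 genes. The part of tissue share and RNA length in the core gene values was not tested.

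The genes whose pattern over the 4 arrays was most like that of each core gene were sought among 5830 named probe sets above the bacterial level on at least 2 arrays. Likeness was the Euclidean distance between log2 values, each gene centred on its own mean, so it describes these 4 arrays and nothing more. For psbC the nearest was psbD, and for psbD it was psbC, at 0.22. The next for psbC was rpl33, a plastid ribosomal protein gene, at 0.30, then AT2G15750, AT5G04060 and atpA. For psbD the others were AT2G15750, AT5G64120, AT5G04060 and atpA, the alpha subunit of the ATP synthase. The gene nearest to psbB was petA, which encodes cytochrome f, at 0.09, followed by ndhE, SAMDC, AT2G17930 and psbI. For psbF the nearest were rpl14, ndhG, AT5G44320, ndhH and XTH16, at 0.65 to 0.79. The 5 nearest to psbE were nuclear: AT4G33420, PUB15, AT2G03420, AT1G04680 and AT4G29100, at 0.12 to 0.21. Of these, PUB15, AT2G03420 and AT4G29100 exceeded the bacterial level on the control arrays only, as did AT5G44320 for psbF, and so they entered the search through the group where they were high. The 5 nearest to psbA were nuclear as well, and AT1G32880 led them at 0.34 with 676 and 37.9 with aluminium and 636 and 79.9 in controls. The others were AT2G35380, AT5G27890, AT2G01600 and AT2G03200. Each of these 5 exceeded the bacterial level on the replicate 1 arrays only. In all, 11 of the 30 places went to plastid genes, which made up 63 of the 5830 candidates (1.08%), and 14 went to genes above the bacterial level on all 4 arrays.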

How the data were processed

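The table holds deposited intensities, linear, with a single value for each probe set on each array. GCOS and RMA are the tools in the submitters' processing notes, with no roles given. On each array the mean without the lowest and highest 2% was 500.0, so the deposited intensities had been scaled globally. Of 22810 probe sets, 64 manufacturer's controls were left out of the test. The probe table paired 13513 probe sets with 1 gene, 503 with several and 8730 with none. Entrez identifiers were matched to RefSeq (TAIR10.1), used for names and gene order only.

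Aluminium was compared with control on log2(intensity + 16), which understates changes of dim genes, with limma 3.58.1 in R 4.3.3 (model of group, two-sided moderated tests). P-values were adjusted by Benjamini-Hochberg over all 22746 plant probe sets, with a threshold of 0.05. The replicates share numbers in their titles. Deviations of same-numbered arrays from their group means correlated with r = 0.087 over probe sets, too little to treat them as paired.

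The limma step was tested on simulated data, where recovery of changes was required only at a spread smaller than that of these arrays. The members, lists and tests were chosen with earlier results of these data known. All 6 core genes, plastid and nuclear photosystem II list members, the 5 genes nearest to each core gene and the 2 members with the largest difference in other lists could be named. PRK in the shoot list was named beyond that rule, after its value was seen. Where nothing says that the pools were grown separately, p-values measure the spread between these samples, which the labels call biological replicates. Alternatives were the replicate block, other normalizations, pseudocounts of 1 and 64, leaving out the dimmest 50%, a spread that follows the mean, and leaving out each array. Centring on the other plastid genes was added after the data had been seen, as were counts of separated genes under each scaling and without each array, and values of neighbours and lists without control replicate 1.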

Additional observations from a re-analysis of the deposited data

How the results depend on the processing

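Under 12 alternatives and 1 added after the data had been seen, 70 of 78 values of the 6 core genes kept their direction and none passed the threshold. Some settings left the differences the same by construction (−1.12 for psbB, −2.14 for psbF). These were the replicate block, leaving out the dimmest 50% and a spread that follows the mean. They are counted in the 70 but could not have changed a direction. With the replicate block no call changed, with adjusted p from 0.899 to 0.989 in limma. With 1 array left out, the differences ranged from −2.20 to 1.65 for psbA, −2.02 to −0.22 for psbB, −2.16 to −0.66 for psbC, −2.03 to −0.67 for psbD, −1.55 to −0.56 for psbE and −3.18 to −1.10 for psbF. The direction of psbA reversed there without aluminium replicate 2 (1.65) and without control replicate 1 (1.32), and with quantile normalization (0.076). Centred on the other plastid genes, the values turned positive for psbA (1.38), psbB (0.54), psbC (0.24), psbD (0.30) and psbE (0.60), because that scale takes the plastid median as 0. On that scale 0 core genes and 10 of the other plastid genes lay below the controls on both aluminium arrays (0.703% of all probe sets). On the same scale 2 core genes and 14 of the other plastid genes lay above (58.5% of all probe sets). As deposited, 5 core genes and 44 of the other plastid genes lay below (16.2% of all probe sets). Quantile normalization and centring on the plant median left 4 core genes separated downward, beside 16.3% and 15.9% of all probe sets.

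The number of probe sets past the threshold was 0 in each alternative, with 454 (dimmest 50% left out) to 3427 (centred on the other plastid genes) at an unadjusted p under 0.05. That count stood at 616 when control replicate 1 was left out, and at 2532 when aluminium replicate 2 was. The share of probe sets without overlap, in either direction, was 32.7% to 34% as deposited, quantile-normalized, centred on the plant or the bright nuclear median, or without the dimmest 50%. With 2 arrays a group, the 95% interval of a core gene reached 1.83 to 3.95 to each side on the log2 scale.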
